A study of Mus musculus with 12 samples.

Results

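Lung RNA of Chil4-deficient mice given allergens (KO_DRA, n = 5) was compared with that of wild type mice, labelled B6, given the same allergens (B6_DRA, n = 5). The comparison covered every gene of an innate immune panel, together with the spread of each gene within the groups. Of the panel's 734 endogenous genes, 665 passed a filter on low counts and were tested, in 10 of the 12 libraries measured. Both groups had 8 weeks of DRA allergen dosed through the nose 2 times a week. The labels do not expand DRA. Wild type mice given PBS in place of allergen (B6_PBS, n = 2) give the level without allergen. The counts came from a NanoString nCounter panel, an assay in which a barcoded probe pair binds each RNA and the barcodes are counted without amplification. The RNA was taken from 1 lobe of the lung and holds all its cell types.

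The Chil4-deficient animals are called knockdown in the study's design text and KO in the sample names. The sources used here do not give how the gene was altered, which stretch of its transcript the probe binds, or the age and sex of the mice. The genotypes are set apart only under allergen, since deficient mice given PBS were not analysed here. Library totals were 320290 to 658293 counts in KO_DRA, 367744 to 673201 in B6_DRA, and 389757 and 392701 in B6_PBS. Of the epithelial markers listed, Cdh1, the adhesion protein of epithelial cells, was the only 1 tested, at 2494 to 3705 CPM (a gene's count over its scaled library total, on 1 scale for all libraries) in KO_DRA, 2416 to 3012 in B6_DRA and 3758 to 3913 in B6_PBS. The 9 endothelial genes tested, Cdh5 and Tek among them, were counted in all 12 libraries. These vessel genes and Cdh1 are not particular to lung, so they could not check the tissue label. The labels do not say whether libraries came from separate extractions, so p-values measure a spread between libraries that may be technical.

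Chil4 and its neighbour Chil3 encode secreted chitinase-like proteins that bind chitin-like sugars and lack chitinase activity. In the mouse lung they are made by macrophages and airway epithelium under IL-4 and IL-13, and they rank among the most abundant products of alternatively activated macrophages. In allergic airway inflammation, damaged epithelium releases alarmins such as IL-33, lymphocytes answer with IL-4, IL-5 and IL-13, and macrophages and structural cells then release the chemokines that draw in eosinophils. STAT6 carries the IL-4 and IL-13 signal to the nucleus in these cells.

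Chil4 lies on the minus strand of mouse chromosome 3 at chr3:106201491-106219479 of GRCm38.p6, and Chil3 on the same strand at chr3:106147554-106167564, with 33926 bases between the genes. The 250 bases before each gene's annotated start are printed from RefSeq on that build, 5′ to 3′, because the targeted gene and its neighbour gave counts in a narrow ratio to each other in every library, as described below. Capitals mark matches to TTCNNNGAA, a palindrome bound by STAT proteins in general that reads the same on both strands, and to TATAAAA, an element of core promoters; the matches do not overlap.
Chil4 (chr3:106219480-106219729, minus strand): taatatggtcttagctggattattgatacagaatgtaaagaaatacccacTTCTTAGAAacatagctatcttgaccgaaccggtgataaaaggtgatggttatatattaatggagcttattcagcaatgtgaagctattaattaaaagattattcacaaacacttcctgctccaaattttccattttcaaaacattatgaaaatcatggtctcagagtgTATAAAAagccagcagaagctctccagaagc
Chil3 (chr3:106167565-106167814, minus strand): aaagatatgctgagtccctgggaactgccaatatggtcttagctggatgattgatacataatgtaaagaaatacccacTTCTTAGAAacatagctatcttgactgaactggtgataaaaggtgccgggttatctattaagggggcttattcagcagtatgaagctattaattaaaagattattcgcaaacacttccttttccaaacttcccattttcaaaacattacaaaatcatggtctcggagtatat
Aligned over their shared part, with unpaired ends not counted, the stretches were identical at 201 of 221 aligned positions (91%). TTCNNNGAA stood 200 bases before the start of Chil4 and 172 bases before that of Chil3, and 7.02% of 32851 windows of this length before RefSeq gene starts held it. The STAT6-type palindrome, with a longer spacer, was in neither stretch and in 5.85% of windows. TATAAAA was found 31 bases before the start of Chil4 and not in the Chil3 stretch, and 4.98% of windows held it. The Chil3 stretch ends inside the aligned place of this element, and bases past the annotated start of Chil3 were not searched. These matches describe letters only.

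Chil4, the targeted gene, was not uniformly low in the deficient animals. It stood at 255026, 15404, 11015, 57356 and 32588 CPM in KO_DRA 8 to 12, against 181316, 100991, 30077, 200206 and 190859 CPM in B6_DRA 3 to 7 and 9893 and 8353 CPM in B6_PBS. The library labelled KO_DRA 8 had the highest Chil4 of all 12, although its label names it deficient, and KO_DRA 9 and 10 were near the PBS libraries. How Chil4 was altered and where its probe binds are not given, so whether these counts can read the deficiency is not known. The ranges of the allergen groups overlapped. The fitted log2 fold change of KO_DRA over B6_DRA was -0.92 (SE 0.80, 95% interval -2.67 to 0.82, adjusted p = 0.53 in edgeR's quasi-likelihood test). Leaving the library labelled KO_DRA 8 out gave -2.27 (adjusted p = 0.0403). On the mean log2 CPM of each group the difference was -1.60, with an exact two-sided permutation p of 0.135 over the 252 splits of 10 libraries, of which the smallest possible is 0.00794 (0.183 adjusted over the 3 values tested this way).

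Chil3, which the labels do not name as altered, had the same shape. It was counted at 330699, 19597, 13691, 68814 and 40683 CPM in KO_DRA 8 to 12, against 215924, 129100.0, 33445, 241422 and 236734 CPM in B6_DRA 3 to 7 and 11848 and 10419 CPM in B6_PBS. The order of the 5 KO_DRA libraries was the same for both genes. Chil4 counts were 0.771, 0.786, 0.805, 0.833 and 0.801 of the Chil3 counts in KO_DRA 8 to 12, against 0.84, 0.782, 0.899, 0.829 and 0.806 in B6_DRA 3 to 7 and 0.835 and 0.802 in B6_PBS. The groups overlapped in this ratio, and its mean log2 difference of -0.06 had an exact permutation p of 0.183, two-sided. The genes are near copies, and how far each probe also counts the other's RNA was not tested, so their values are uncertain as measures of 1 gene.

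2 libraries stood apart from their groups, and results are given with and without the first, the library labelled KO_DRA 8. That library was singled out by these same values, and leaving it out narrows the spread of KO_DRA. Adjusted p-values and counts of genes passing without it are therefore descriptions and not independent support. Over the tested genes, the library labelled KO_DRA 8 differed from the other KO_DRA libraries by a median absolute log2 difference of 0.369 to 0.587, and from the B6_DRA libraries by 0.201 to 0.426. B6_DRA 5 differed from the other B6_DRA libraries by 0.299 to 0.382 and from KO_DRA 9 to 12 by 0.181 to 0.233. KO_DRA 9 to 12 lay 0.191 to 0.288 from each other, and B6_DRA 3, 4, 6 and 7 lay 0.167 to 0.212 from each other. In 513 of 665 genes the library labelled KO_DRA 8 was nearer to the B6_DRA mean than to the mean of the other KO_DRA libraries. For B6_DRA 5, 499 of 665 genes were nearer to the mean of all 5 KO_DRA libraries than to that of the other B6_DRA libraries. No library was moved to another group, and whether these 2 libraries carry each other's labels was not tested.

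On the first principal component of the 10 allergen libraries, which held 66.4% of the variance in log2 CPM, KO_DRA 8 to 12 lay at 10.64, -11.40, -16.32, -3.72 and -6.18 and B6_DRA 3 to 7 at 9.80, 3.33, -6.58, 10.64 and 9.80. KO_DRA 9 to 12 were all below 0, the library labelled KO_DRA 8 was level with the highest B6_DRA library, and B6_DRA 5 was below KO_DRA 11 and 12. The difference of the means was -10.79 (exact permutation p = 0.135, two-sided). No gene passed the threshold between the groups: edgeR called 0 of 665 genes (0.0%), with a smallest adjusted p of 0.313. Limma-voom called 0 and DESeq2 called 1 (0.15%), Ccl24, which was lower in KO_DRA (adjusted p = 0.0356). At an unadjusted p under 0.05 there were 84 genes (12.6%), 36 higher in KO_DRA (5.41%) and 48 lower (7.22%). This split depended on the scaling, with 44 higher and 40 lower under housekeeping scaling and 67 higher and 20 lower with scaling to library size alone. When the library labelled KO_DRA 8 was left out, 120 of 664 genes passed (18.1%), 30 higher (4.52%) and 90 lower (13.6%); leaving out any other library gave 0.

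The intervals set how much a change could have been. Of the 665 genes, 532 had a 95% interval of the fold change that stayed within 2-fold in either direction, and 326 had one within 1.5-fold. The interval of 129 genes reached past 2-fold in 1 direction and that of 4 in both. The median half-width was 0.398 on the log2 scale.

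Products of alternatively activated macrophages were mostly lower in KO_DRA, without passing the test. Of 21 tested genes of this list, 19 had a negative log2 fold change and 2 a positive one, with a median of -0.71 beside 0.007 over all genes. Retnla, a secreted resistin-like protein of these macrophages, stood at 68208, 9884, 12494, 44636 and 28856 CPM in KO_DRA 8 to 12, against 98222, 42792, 48545, 98788 and 112791 CPM in B6_DRA 3 to 7 and 1692 and 2013 CPM in B6_PBS. KO_DRA 9, 10 and 12 were below every B6_DRA library, and the other KO_DRA libraries lay within the B6_DRA range. Retnla had a fitted log2 difference of -1.29 (SE 0.50), and -1.74 without the library labelled KO_DRA 8 (adjusted p = 0.0403).

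Arg1, arginase of the urea cycle and a classic marker of this state, was counted at 933, 71.2, 52.4, 318 and 85.5 CPM in KO_DRA 8 to 12, against 820.3, 270.0, 132, 1168 and 1269 CPM in B6_DRA 3 to 7 and 46.4 and 45.5 CPM in B6_PBS. KO_DRA 9, 10 and 12 and B6_DRA 5 were the lowest of the 10, and the groups overlapped (-1.32, SE 0.81, on the log2 scale). Mmp12, the elastase of macrophages, stood at 8395, 253, 138, 2187 and 975 CPM in KO_DRA 8 to 12, against 17896, 2523, 746, 16710.1 and 10929.6 CPM in B6_DRA 3 to 7 and 114 and 41.7 CPM in B6_PBS. KO_DRA 10 was near the PBS level, B6_DRA 3 was highest, and the groups overlapped. The log2 fold change of Mmp12 was -2.03 with an SE of 1.08, and -3.46 without the library labelled KO_DRA 8 (adjusted p = 0.0426).

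Pdcd1lg2, a ligand of the inhibitory receptor PD-1 on myeloid cells, had 148, 69.3, 56.3, 82.6 and 53.4 CPM in KO_DRA 8 to 12, against 214, 150.2, 94.7, 151 and 190.3 CPM in B6_DRA 3 to 7. Only the library labelled KO_DRA 8 reached into the B6_DRA range. Irf4, a transcription factor that macrophages and dendritic cells use under IL-4, had 251, 178, 67.9, 172 and 158 CPM in KO_DRA 8 to 12, against 304, 259, 178, 249.7 and 365 CPM in B6_DRA 3 to 7. KO_DRA 10 was lowest at about the PBS level of 71.5 to 81.5 CPM. With the library labelled KO_DRA 8 left out, 14 of the 21 genes passed the test, all lower, beside 13.6% of all genes called lower in that fit.

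**Figure D1:**
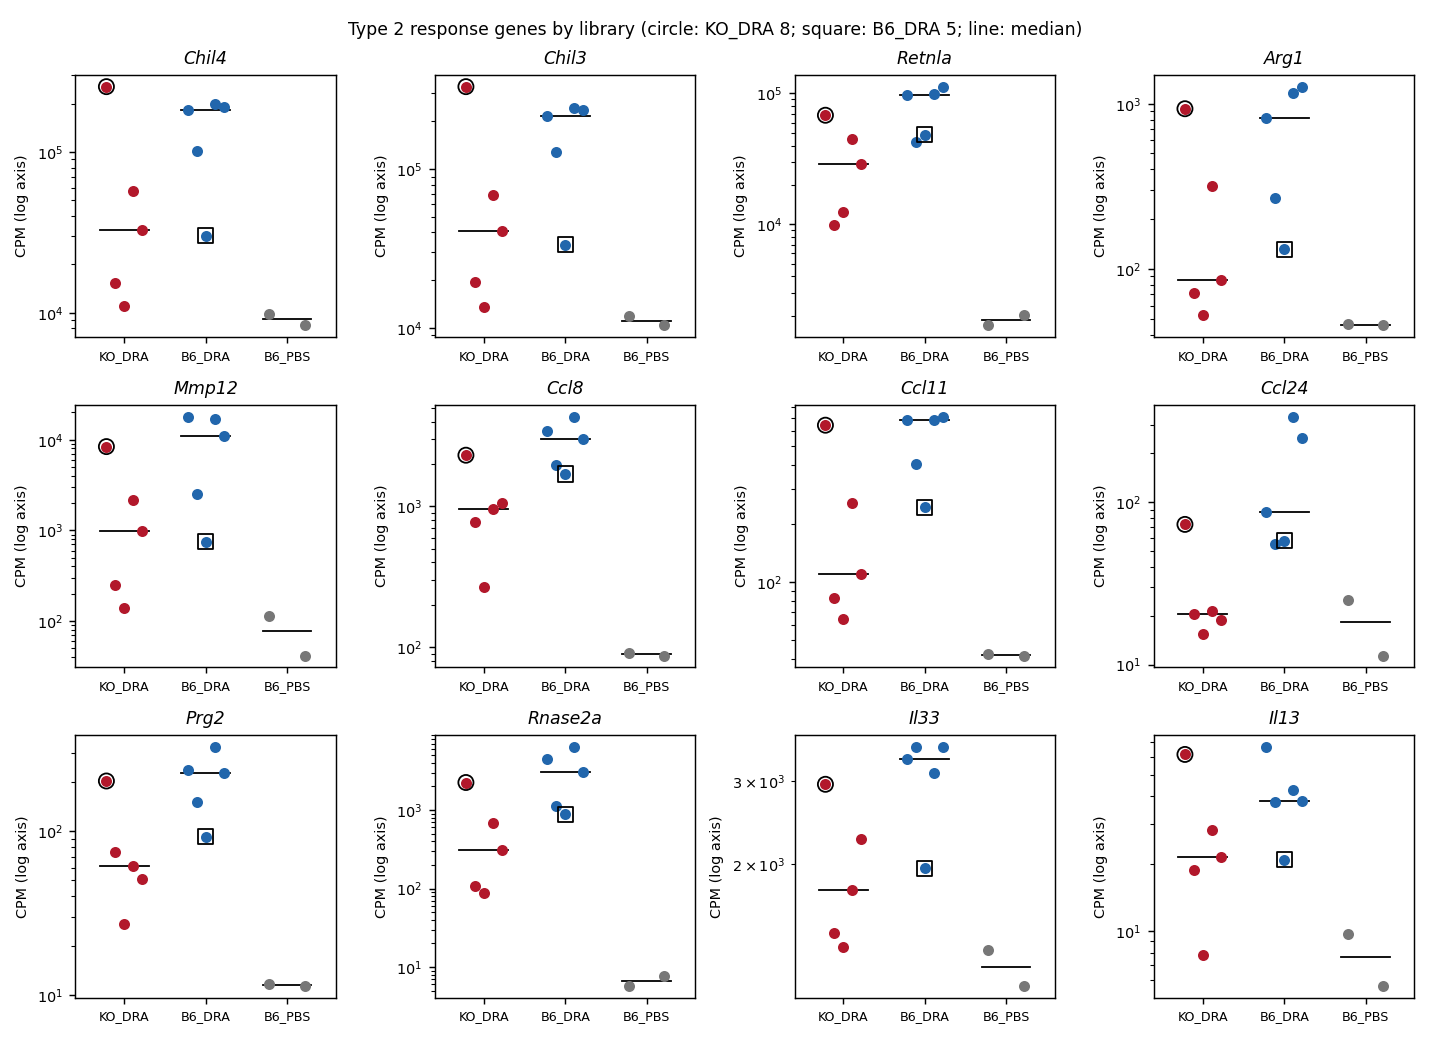
CPM (log axis) of 12 type 2 genes, with KO_DRA to the left of B6_DRA and B6_PBS; each point is 1 library, a circle marks the library labelled KO_DRA 8, a square marks B6_DRA 5, and lines are group medians. KO_DRA 9, 10 and 12 sit low in Chil4, Retnla and Arg1, while the library labelled KO_DRA 8 lies within or above the B6_DRA range of these genes.

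All 14 tested chemokines and receptors of type 2 inflammation had a lower mean in KO_DRA in the fit, with a median log2 fold change of -0.85 and none past the threshold. Ccl17, Ccl22 and Ccl24 are also on the list of macrophage products. Ccl24 (eotaxin-2), which draws eosinophils through CCR3, stood at 73, 20.6, 15.5, 21.2 and 18.7 CPM in KO_DRA 8 to 12, against 86.7, 55.4, 57.8, 335 and 247 CPM in B6_DRA 3 to 7 and 25.1 and 11.4 CPM in B6_PBS. KO_DRA 9 to 12 were within the range of the PBS libraries and below every B6_DRA library, and the library labelled KO_DRA 8 was between B6_DRA 5 and B6_DRA 3. The KO_DRA 9 to 12 values rest on 7 to 11 counts. The log2 fold change was -2.37 (SE 0.63, 95% interval -3.74 to -0.998, edgeR adjusted p = 0.313).

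Ccl8, a chemokine of Th2 cells and eosinophils in the mouse, was counted at 2314, 772, 268, 965 and 1058 CPM in KO_DRA 8 to 12, against 3437, 1962, 1700.2, 4340.2 and 3023 CPM in B6_DRA 3 to 7 and 90.8 and 87.2 CPM in B6_PBS. The highest KO_DRA value, in the library labelled KO_DRA 8, exceeded only B6_DRA 4 and 5, and KO_DRA 9 to 12 were below all of B6_DRA. Ccl11 (eotaxin-1) had 643, 82.4, 64, 255 and 109.5 CPM in KO_DRA 8 to 12, against 687, 408, 243, 683 and 710.5 CPM in B6_DRA 3 to 7. KO_DRA 11 was just above B6_DRA 5, so that gene overlapped even without the library labelled KO_DRA 8. On the log2 scale the differences were -1.43 (SE 0.45) for Ccl8 and -1.25 (SE 0.57) for Ccl11.

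The monocyte chemokines showed the same split of libraries. Ccl2 had 148, 35.6, 40.8, 47.2 and 74.8 CPM in KO_DRA 8 to 12, against 169, 129, 71.6, 204 and 206 CPM in B6_DRA 3 to 7. Ccl7 had 47.9, 24.4, 33, 21.2 and 56.1 CPM in KO_DRA 8 to 12, against 60.5, 78.7, 48.5, 68.1 and 60.3 CPM in B6_DRA 3 to 7. For Ccl7 it was KO_DRA 12, not the library labelled KO_DRA 8, that came highest in its group, and both it and B6_DRA 5 lay in the overlap. Ccr4, a receptor of Th2 cells for CCL17 and CCL22, had 27.4, 11.2, 15.5, 18.9 and 24 CPM in KO_DRA 8 to 12, against 36.3, 53.6, 23.1, 35.3 and 28.5 CPM in B6_DRA 3 to 7, and was above background in 3 of 5 KO_DRA libraries.

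Ccl17 and Ccl22, the ligands of CCR4, differed less. Ccl17 had 1550.5, 388, 345, 578 and 711 CPM in KO_DRA 8 to 12, against 927, 1259, 545, 1178 and 1741 CPM in B6_DRA 3 to 7 (-0.66, SE 0.40, on the log2 scale). For Ccl22 the log2 fold change was -0.21 (SE 0.28), which turned to 0.06 when libraries were scaled to their size alone. Of the 14 genes, 11 passed the test without the library labelled KO_DRA 8, all lower, beside 13.6% of all genes called lower. Of 13 chemokines and receptors that recruit monocytes, a list that shares Ccl2, Ccl6, Ccl7, Ccl9 and Ccl12 with the first, 11 were lower and 2 higher in KO_DRA with a median of -0.43. One of the higher ones was Ccl5, a chemokine of T and NK cells, at 547, 948, 811, 778 and 828 CPM in KO_DRA 8 to 12, against 509.9, 511, 769, 636 and 466 CPM in B6_DRA 3 to 7; B6_DRA 5 was the highest of its group and the library labelled KO_DRA 8 the lowest of its own.

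Eosinophil markers had the most negative median of the lists, at -0.90, with 8 of 8 tested genes below 0 and none past the threshold. Ccr3 is also on the chemokine list, Il5ra on the cytokine list, and Alox15 on the macrophage product and eicosanoid lists. The medians and counts of these lists are therefore not separate results. Prg2, the major basic protein of eosinophil granules, stood at 203, 74.9, 27.2, 61.3 and 50.8 CPM in KO_DRA 8 to 12, against 238, 152, 92.4, 328 and 228 CPM in B6_DRA 3 to 7 and 11.6 and 11.4 CPM in B6_PBS. KO_DRA 9 to 12 were below all B6_DRA libraries and above the PBS level, and the library labelled KO_DRA 8 was within the B6_DRA range. For Prg2 the log2 fold change was -1.31 (SE 0.47) with all libraries and -1.94 without that library (adjusted p = 0.0344).

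Rnase2a, an eosinophil-associated ribonuclease, had 2241, 107, 87.3, 675 and 307 CPM in KO_DRA 8 to 12, against 4432, 1126, 878, 6363 and 3067 CPM in B6_DRA 3 to 7 and 5.8 and 7.58 CPM in B6_PBS. It belongs to a family of similar copies, so its counts are uncertain as those of 1 gene. Every allergen library was above the PBS libraries, and KO_DRA 9 to 12 were below all of B6_DRA. Ccr3, the eotaxin receptor, had 483, 107, 79.6, 267 and 214 CPM in KO_DRA 8 to 12, against 530.1, 236, 286, 549.8 and 536 CPM in B6_DRA 3 to 7. Alox15, a lipoxygenase of eosinophils and alternatively activated macrophages, had 442, 60.0, 52.4, 208 and 222 CPM in KO_DRA 8 to 12, against 705, 227, 226, 767 and 558 CPM in B6_DRA 3 to 7. In the summed level of the 8 genes KO_DRA ran from 530 to 4163 CPM, B6_DRA from 1864 to 8771 and B6_PBS from 369 to 398. Fewer eosinophils and less RNA per eosinophil cannot be told apart in bulk lung RNA, which holds for every cell type here. In the fit that left out the library labelled KO_DRA 8, 6 of the 8 genes passed, all lower. Of all genes in that fit, 13.6% were called lower.

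Among the type 2 cytokines, alarmins and their receptors, 7 of 9 tested genes were lower and 2 higher in KO_DRA, with a median of -0.48. Il33, the alarmin of epithelial and stromal nuclei, stood at 2950.4, 1431, 1339, 1767 and 2263 CPM in KO_DRA 8 to 12, against 3332, 3537, 1964, 3112 and 3533 CPM in B6_DRA 3 to 7 and 1321 and 1111 CPM in B6_PBS. B6_DRA 5 lay far below the other B6_DRA libraries and below the library labelled KO_DRA 8 and KO_DRA 12. For Il33 the log2 fold change was -0.67 (SE 0.23), and -0.86 without the library labelled KO_DRA 8 (adjusted p = 0.0344). Il1rl1, which encodes the IL-33 receptor ST2, had 258, 159, 153, 304 and 240.4 CPM in KO_DRA 8 to 12, against 399, 279, 247, 449 and 314 CPM in B6_DRA 3 to 7; here KO_DRA 11 was the highest of its group.

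Il13 had 61.6, 18.7, 7.76, 28.3 and 21.4 CPM in KO_DRA 8 to 12, against 66.5, 37.5, 20.8, 42.9 and 38.1 CPM in B6_DRA 3 to 7 and 9.66 and 5.69 CPM in B6_PBS. Il4 had 45.6, 15, 5.82, 42.5 and 45.4 CPM in KO_DRA 8 to 12, against 56.4, 19.7, 18.5, 53 and 66.6 CPM in B6_DRA 3 to 7 and 1.93 and 15.2 CPM in B6_PBS. Both cytokines overlapped between the groups, and each was above background in 4 of 5 KO_DRA libraries. Il5, the growth factor of eosinophils, gave 1 to 8 counts in KO_DRA, 2 to 11 in B6_DRA and 3 and 4 in B6_PBS, and was not tested. Il5ra, its receptor chain, had 45.6, 18.7, 7.76, 37.7 and 34.7 CPM in KO_DRA 8 to 12, against 42.3, 39.3, 34.7, 93.3 and 60.3 CPM in B6_DRA 3 to 7. Stat6 lay at 1653 to 1993 CPM in KO_DRA and 1584 to 1733 CPM in B6_DRA (0.16, SE 0.08, on the log2 scale). Of the 9 genes, 1 passed without the library labelled KO_DRA 8, Il33, which was lower, beside 13.6% of all genes called lower.

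In 8 of the 665 genes (1.2%) no KO_DRA library overlapped a B6_DRA library, 4 higher in KO_DRA (0.602%) and 4 lower (0.602%). None of them passed the test over all genes. Of the 8, only Cd209e stayed free of overlap when libraries were scaled to their size alone, a scaling that moved the median of all genes by 0.34. Housekeeping scaling gave 12 genes, 9 higher and 3 lower, without Alox5 and Clec1b, and DESeq2 size factors gave 7, without C5ar1 and Clec1b. Without the library labelled KO_DRA 8, 47 genes did not overlap (7.07%), 28 higher (4.21%) and 19 lower (2.86%), a count that smaller groups also raise by construction.

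Cd209e, a C-type lectin of the DC-SIGN family that binds sugars on microbes, had 45.6, 9.37, 7.76, 47.2 and 10.7 CPM in KO_DRA 8 to 12, against 105, 64.4, 53.1, 136 and 92 CPM in B6_DRA 3 to 7 and 1.93 and 3.79 CPM in B6_PBS. The library labelled KO_DRA 8 and KO_DRA 11 were just below B6_DRA 5, while KO_DRA 9, 10 and 12 were not above background. The log2 fold change was -1.91 (SE 0.48, 95% interval -2.97 to -0.85, adjusted p = 0.313). Scin (scinderin), which severs actin filaments, had 43.3, 18.7, 21.3, 47.2 and 29.4 CPM in KO_DRA 8 to 12, against 54.4, 60.8, 60.1, 88.3 and 108 CPM in B6_DRA 3 to 7 and 5.8 and 7.58 CPM in B6_PBS. The same 2 libraries, the library labelled KO_DRA 8 and KO_DRA 11, were the highest of KO_DRA, and B6_DRA 3, not B6_DRA 5, was the lowest wild type library. Its log2 fold change was -1.21 (SE 0.29, 95% interval -1.84 to -0.57, adjusted p = 0.313).

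Alox5, the enzyme that starts leukotriene synthesis, had 299, 277, 235, 255 and 305 CPM in KO_DRA 8 to 12, against 318, 368, 309.5, 404 and 317 CPM in B6_DRA 3 to 7. The gap between the groups, from KO_DRA 12 to B6_DRA 5, was smaller than the spread inside either group, and the log2 fold change of -0.33 (SE 0.11) turned to 0.01 with scaling to library size alone. Clec1b, the podoplanin receptor of platelets and myeloid cells, had 107, 95.6, 111, 99.1 and 85.5 CPM in KO_DRA 8 to 12, against 133, 114, 111, 199 and 139.6 CPM in B6_DRA 3 to 7. KO_DRA 10 and B6_DRA 5 were nearly level there.

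On the higher side, Fosb, a subunit of the AP-1 transcription factor made within minutes of a stimulus, had 73, 107, 144, 56.6 and 69.5 CPM in KO_DRA 8 to 12, against 52.4, 42.9, 43.9, 40.4 and 47.6 CPM in B6_DRA 3 to 7 and 145 and 135 CPM in B6_PBS. KO_DRA 10 was the highest allergen library, and the B6_DRA libraries lay close together below the PBS libraries. Its log2 fold change was 0.99 (SE 0.24, 95% interval 0.46 to 1.53, adjusted p = 0.313). Cyr61, a matrix-associated protein induced by growth factors, had 1865, 2426, 4196, 2333 and 1774 CPM in KO_DRA 8 to 12, against 1544, 1457, 1305, 973 and 1691 CPM in B6_DRA 3 to 7 and 2811 and 2309 CPM in B6_PBS. KO_DRA 12 was only just above B6_DRA 7.

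C5ar1, the receptor of complement fragment C5a on neutrophils and macrophages, had 326, 384, 485, 441 and 353 CPM in KO_DRA 8 to 12, against 175, 325, 312, 287 and 295 CPM in B6_DRA 3 to 7 and 539 and 483 CPM in B6_PBS. The library labelled KO_DRA 8 and B6_DRA 4 differed by under 1 CPM, and B6_DRA 3 was far below its group. Socs2, a feedback inhibitor of JAK-STAT signalling, had 1603, 1626, 1898, 1732 and 1651 CPM in KO_DRA 8 to 12, against 1528, 1439, 1488, 1437 and 1516 CPM in B6_DRA 3 to 7 and 1696 and 1649 CPM in B6_PBS. The log2 fold change of Socs2 was small, 0.20 (SE 0.07), and the libraries of each group lay close together.

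**Figure D2:**
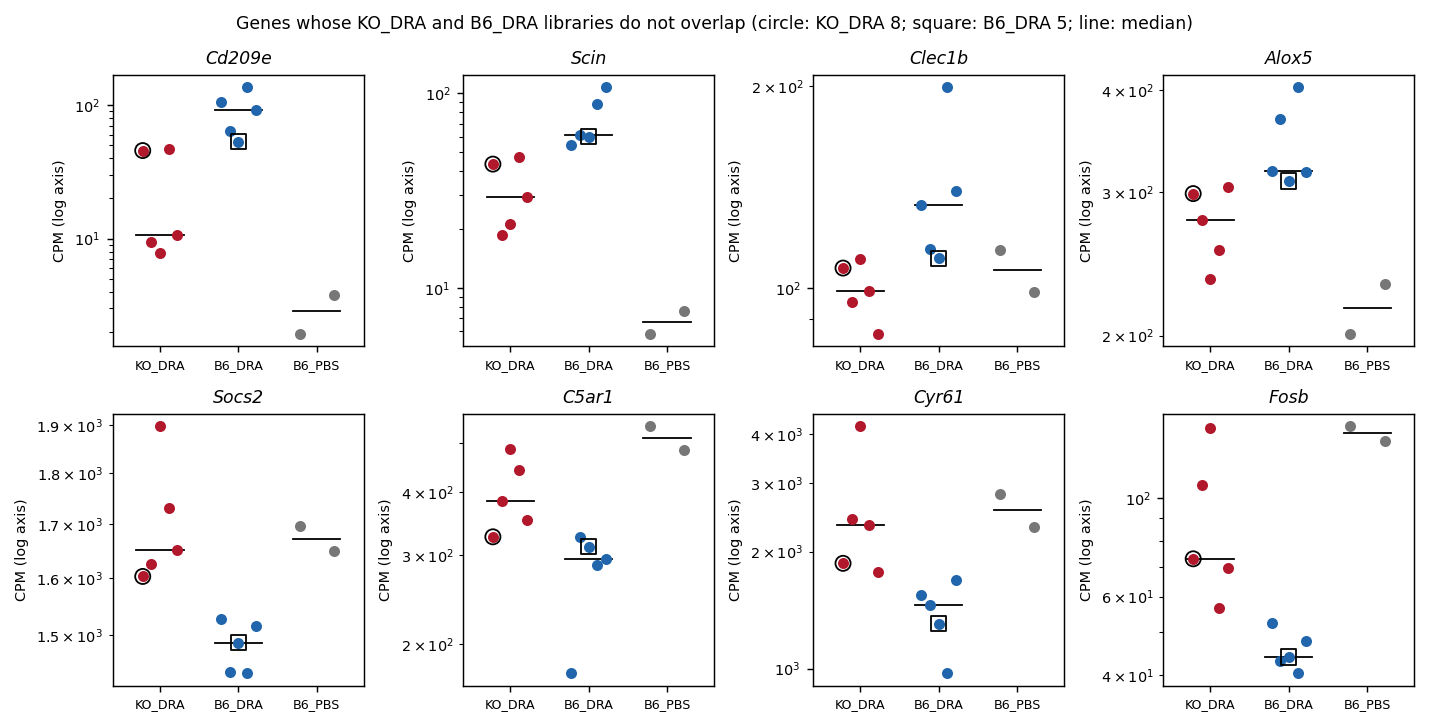
CPM (log axis) of the 8 genes whose KO_DRA and B6_DRA libraries did not overlap, 1 point per library, with KO_DRA left of B6_DRA and B6_PBS at the right; a circle marks the library labelled KO_DRA 8, a square B6_DRA 5, and lines are group medians. Cd209e, Scin, Clec1b and Alox5 are lower in KO_DRA and Fosb, Cyr61, C5ar1 and Socs2 higher; the gaps of Alox5, Clec1b and C5ar1 are narrow, and scaling to library size alone left a gap only in Cd209e.

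Genes of immediate early and stress responses had a median log2 fold change of 0.30, with 9 of 13 tested genes higher and 4 lower in KO_DRA. Nr4a1, an orphan nuclear receptor of this class, had 586, 467, 1296, 684 and 451 CPM in KO_DRA 8 to 12, against 341, 508, 312, 224 and 441 CPM in B6_DRA 3 to 7. KO_DRA 10 was again the highest library, and B6_DRA 4 was above KO_DRA 9 and 12. Gadd45b, a growth-arrest gene, had 499, 731, 796, 663 and 676 CPM in KO_DRA 8 to 12, against 484, 476, 605, 502 and 571 CPM in B6_DRA 3 to 7. The summed level of the list was 10151 to 25459 CPM in KO_DRA, 8312 to 11535 CPM in B6_DRA and 13843 to 18703 CPM in B6_PBS. Of the 13 genes, 3 passed without the library labelled KO_DRA 8 (Fosb, Cyr61 and Gadd45b), all higher. Of all genes in that fit, 4.52% were called higher.

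Vessel genes leaned the same way: 8 of 9 endothelial markers were higher in KO_DRA and 1 lower, with a median of 0.39. Tek, the angiopoietin receptor, had 1439, 2857, 3313, 2621 and 2431 CPM in KO_DRA 8 to 12, against 1643, 1725, 2456, 1735 and 1697 CPM in B6_DRA 3 to 7 and 3926 and 3469 CPM in B6_PBS. Cdh5, the cadherin of endothelial junctions, had 1441, 2565, 3392, 2796 and 2493 CPM in KO_DRA 8 to 12, against 1701, 1670.0, 2791, 1864 and 1462 CPM in B6_DRA 3 to 7 and 3868 and 3431 CPM in B6_PBS. Thbd, thrombomodulin of the vessel wall, had 3573, 5855, 7574, 5501 and 5506 CPM in KO_DRA 8 to 12, against 3869.9, 3749.6, 6152, 4015 and 3527 CPM in B6_DRA 3 to 7. In Tek and Cdh5 the library labelled KO_DRA 8 was the lowest of the 10, and B6_DRA 5 was the highest wild type library in all 3 genes. Sele, the E-selectin of activated vessels, was the lower one, at 29.6, 35.6, 44.6, 47.2 and 18.7 CPM in KO_DRA 8 to 12, against 82.6, 37.5, 62.4, 50.4 and 53.9 CPM in B6_DRA 3 to 7.

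Chil3, Chil4 and Retnla took 43.6%, 5.55%, 4.80%, 18.2% and 11.9% of the counts in KO_DRA 8 to 12, against 36.5%, 25.8%, 13.2%, 38.5% and 38.9% in B6_DRA 3 to 7. The library labelled KO_DRA 8, with the largest share, had the lowest summed endothelial level, 9996 CPM, and KO_DRA 10, with the smallest share, had the highest of the 10, 22737 CPM. The part of this share in the endothelial result was not tested. Scaling to library size alone leaves that share in. Under it, all 24 list medians stayed on the same side of the median of all genes as under TMM scaling. A change of scaling multiplies all genes of a library by the same factor, so this result was largely fixed in advance. It does not test the part of that share.

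Of 7 interferon-stimulated genes, 5 were higher and 2 lower in KO_DRA, with a median of 0.36. Mx2, an antiviral dynamin-like GTPase, had 50.2, 78.7, 113, 73.1 and 80.1 CPM in KO_DRA 8 to 12, against 56.4, 46.5, 69.3, 40.4 and 38.1 CPM in B6_DRA 3 to 7 and 86.9 and 106 CPM in B6_PBS. Ifit1bl1, of the interferon-induced Ifit family, had 77.5, 157, 118, 92 and 131 CPM in KO_DRA 8 to 12, against 78.6, 69.7, 80.9, 78.2 and 76.1 CPM in B6_DRA 3 to 7. KO_DRA 9 to 12 were above every B6_DRA library in both genes, and the library labelled KO_DRA 8 was within the B6_DRA range. Isg15, a ubiquitin-like modifier, and Irf7, a regulator of interferon genes, had log2 fold changes of 0.36 with an SE of 0.17 for Isg15 and 0.38 with an SE of 0.16 for Irf7. Mx2 was the 1 gene of the 7 that passed without the library labelled KO_DRA 8, beside 4.52% of all genes called higher. Ifit1bl1, which is not on the list, passed too.

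Structural genes of this direction were Timp3, an inhibitor of metalloproteinases, at 2929.9, 5915, 7429, 5308 and 4982 CPM in KO_DRA 8 to 12, against 3586, 3522, 5131, 3159.9 and 3200.2 CPM in B6_DRA 3 to 7 and 8724 and 7709.9 CPM in B6_PBS, and Bmp6, Nox4 and Col17a1. Bmp6, a growth factor of the TGF-beta family, had 556, 1373, 1622, 1366 and 1266 CPM in KO_DRA 8 to 12, against 729.6, 855, 1453, 857 and 691 CPM in B6_DRA 3 to 7. In Timp3 and Bmp6 the library labelled KO_DRA 8 was the lowest of the 10 and B6_DRA 5 lay among KO_DRA 9 to 12. Over the 19 tested genes of matrix, metalloproteinases and the TGF-beta family, 10 were lower and 9 higher, with a median of -0.05.

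Leukotriene and prostaglandin genes were lower by smaller amounts, with 10 of 13 tested genes lower and 3 higher and a median of -0.22. Cysltr1, a receptor of cysteinyl leukotrienes, had 153, 139, 132, 184 and 160.3 CPM in KO_DRA 8 to 12, against 183, 213, 196, 222 and 225 CPM in B6_DRA 3 to 7 and 114 and 131 CPM in B6_PBS. KO_DRA 11 was level with B6_DRA 3, and all other KO_DRA libraries were below the B6_DRA range. Its log2 fold change of -0.44 (SE 0.12) was -0.44 without the library labelled KO_DRA 8 (adjusted p = 0.0426), so that library did not set its size. For Alox5ap, the partner protein of Alox5, the value was -0.25 (SE 0.11), and 0.10 with scaling to library size alone.

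Of 8 complement genes, 7 were lower and 1, C5ar1, higher in KO_DRA, with a median of -0.41. C1qa, a chain of the protein that starts the classical pathway and a product of macrophages, had 1389, 956, 605, 920.0 and 1047 CPM in KO_DRA 8 to 12, against 1504, 1253, 1067, 1717 and 1443 CPM in B6_DRA 3 to 7 and 388 and 385 CPM in B6_PBS. C1qb, another chain of C1q, had a log2 fold change of -0.50 (SE 0.21). C3ar1, the C3a receptor, had 659, 268, 213, 434 and 398 CPM in KO_DRA 8 to 12, against 915, 506, 372, 837 and 736 CPM in B6_DRA 3 to 7. KO_DRA 9 to 12 were below every B6_DRA library in C1qa but not in C3ar1, where B6_DRA 5 was low as well. When the library labelled KO_DRA 8 was left out, 6 of the 8 genes passed lower and 1 higher. Over all genes of that fit, 13.6% passed lower and 4.52% higher.

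Markers of monocytes and interstitial macrophages were lower in 14 of 18 tested genes and higher in 4, with a median of -0.35. Ly6c1, whose antigen is also carried by mouse endothelium, was among the higher ones, at 7513, 8448, 8432, 7903 and 6967 CPM in KO_DRA 8 to 12, against 5601, 6379.8, 6678, 6643 and 7212 CPM in B6_DRA 3 to 7. Fcgr3, a low-affinity IgG receptor, had 666, 269.8, 180.5, 419.9 and 313 CPM in KO_DRA 8 to 12, against 810.3, 563, 303, 862 and 676 CPM in B6_DRA 3 to 7. Btk, a kinase of B cells and myeloid cells, had 426, 341, 229, 321 and 313 CPM in KO_DRA 8 to 12, against 530.1, 447, 367, 462 and 482 CPM in B6_DRA 3 to 7, with the library labelled KO_DRA 8 the only one inside the B6_DRA range.

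Alveolar macrophage markers were lower in 9 of 11 genes and higher in 2, with a median of -0.22 that became -0.63 without the library labelled KO_DRA 8. Trem2, a lipid-sensing receptor, had 732, 159, 71.8, 304 and 211 CPM in KO_DRA 8 to 12, against 1048, 452, 176, 895 and 723 CPM in B6_DRA 3 to 7. Itgax, the integrin CD11c, had 1067, 238, 190.2, 370.4 and 273 CPM in KO_DRA 8 to 12, against 913, 731, 261, 900.3 and 879 CPM in B6_DRA 3 to 7. Csf2ra, a chain of the GM-CSF receptor, had 506, 287, 223, 354 and 342 CPM in KO_DRA 8 to 12, against 530.1, 538, 256, 557 and 447 CPM in B6_DRA 3 to 7. Cd36, a scavenger receptor that endothelium also carries, had 9564 to 12161 CPM in KO_DRA and 8633 to 11026 CPM in B6_DRA. Itgax had 1 library far from each group, the library labelled KO_DRA 8 above the rest of KO_DRA and B6_DRA 5 below the rest of B6_DRA.

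Neutrophil markers gave no shared direction of size: 8 of 11 tested genes were lower and 3 higher, with a median of -0.25. S100a9, a calcium-binding protein that fills the neutrophil cytosol, had 1172, 2543, 1426, 1328 and 1731 CPM in KO_DRA 8 to 12, against 355, 2221, 2121, 1722 and 3517 CPM in B6_DRA 3 to 7, and both the lowest and the highest value were in B6_DRA. Its log2 fold change of -0.27 (SE 0.45) turned to 0.10 with scaling to library size alone. Mmp9, a gelatinase of neutrophil granules, had 63.8, 86.2, 91.2, 68.4 and 109.5 CPM in KO_DRA 8 to 12, against 88.7, 98.3, 132, 126 and 133 CPM in B6_DRA 3 to 7, and Itgam, the integrin CD11b of neutrophils and macrophages, had 461, 302, 245, 302 and 347 CPM in KO_DRA 8 to 12, against 593, 318, 386, 618 and 485 CPM in B6_DRA 3 to 7. Both had lower group medians in KO_DRA and overlapped. Fpr2, a receptor of formylated peptides, had 159.6, 296, 233, 134 and 321 CPM in KO_DRA 8 to 12, against 16.1, 202, 180.2, 53 and 114 CPM in B6_DRA 3 to 7, with B6_DRA 3 and 6 the lowest of the 10. Cxcl5, a neutrophil chemokine of epithelium, had 1183, 187, 126, 299.6 and 879 CPM in KO_DRA 8 to 12, against 415, 2285, 686, 1427 and 1297 CPM in B6_DRA 3 to 7 and 48.3 and 45.5 CPM in B6_PBS. Its 10 allergen libraries all exceeded the PBS libraries, and the groups overlapped widely. Cxcl1 and Cxcl3, further ligands of neutrophil receptors, had log2 fold changes of -0.64 (SE 0.50) for Cxcl1 and -0.61 (SE 0.46) for Cxcl3.

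Antigen presentation by MHC class II had 9 of 12 tested genes lower and 3 higher, with a median of -0.19. Cd74, the invariant chain, had 42936, 35339.5, 25649.5, 39993 and 42524 CPM in KO_DRA 8 to 12, against 46856, 42368, 37277, 46627 and 44952 CPM in B6_DRA 3 to 7 and 18556 and 20815 CPM in B6_PBS. KO_DRA 10 was the lowest allergen library, and every allergen library exceeded the PBS libraries. The log2 fold change was -0.23 (SE 0.16), and 0.10 with scaling to library size alone. Cd80, a costimulatory ligand of T cells, had 219, 88.1, 81.5, 73.1 and 80.1 CPM in KO_DRA 8 to 12, against 198, 145, 106, 151 and 159 CPM in B6_DRA 3 to 7. Highest of the 10 was the library labelled KO_DRA 8, and KO_DRA 9 to 12 were below every B6_DRA library. Ctss, the protease that trims the invariant chain, had 15404, 4703, 3503, 8096 and 6508 CPM in KO_DRA 8 to 12, against 18533, 8759.7, 5297, 18291 and 15364 CPM in B6_DRA 3 to 7, and the class II chain H2-Eb1 had a log2 fold change of -0.24 (SE 0.13), or 0.08 with scaling to library size alone. Dendritic cell markers were lower in 11 of 13 genes with a median of -0.27, and C-type lectins and Fc receptors in 11 of 12 with a median of -0.45.

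The other lists were small in size or in shift. Mast cell and basophil markers had a median of -0.24 over 8 genes, 6 lower and 2 higher, with Fcer1a, a chain of the IgE receptor, at 13.7, 16.9, 13.6, 9.44 and 24 CPM in KO_DRA 8 to 12, against 14.1, 34, 30.0, 10.1 and 31.7 CPM in B6_DRA 3 to 7. T cell markers had -0.21 over 7 genes, with Pdcd1, the receptor PD-1, at 73, 46.8, 23.3, 23.6 and 40.1 CPM in KO_DRA 8 to 12, against 72.6, 53.6, 34.7, 85.7 and 85.6 CPM in B6_DRA 3 to 7. B cell markers had a median of 0.12 over 4 genes and NK and cytotoxic markers one of 0.27 over 3 genes, all of the last higher. Adhesion molecules of leukocytes had -0.12 over 13 genes, neutrophil chemokines with the IL-17 pathway -0.33 over 6 genes, and innate sensors with NF-kappaB signalling -0.01 over 19 genes, 10 lower and 9 higher. No erythrocyte marker was on the panel. None of these genes passed the test with all libraries.

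**Figure D3:**
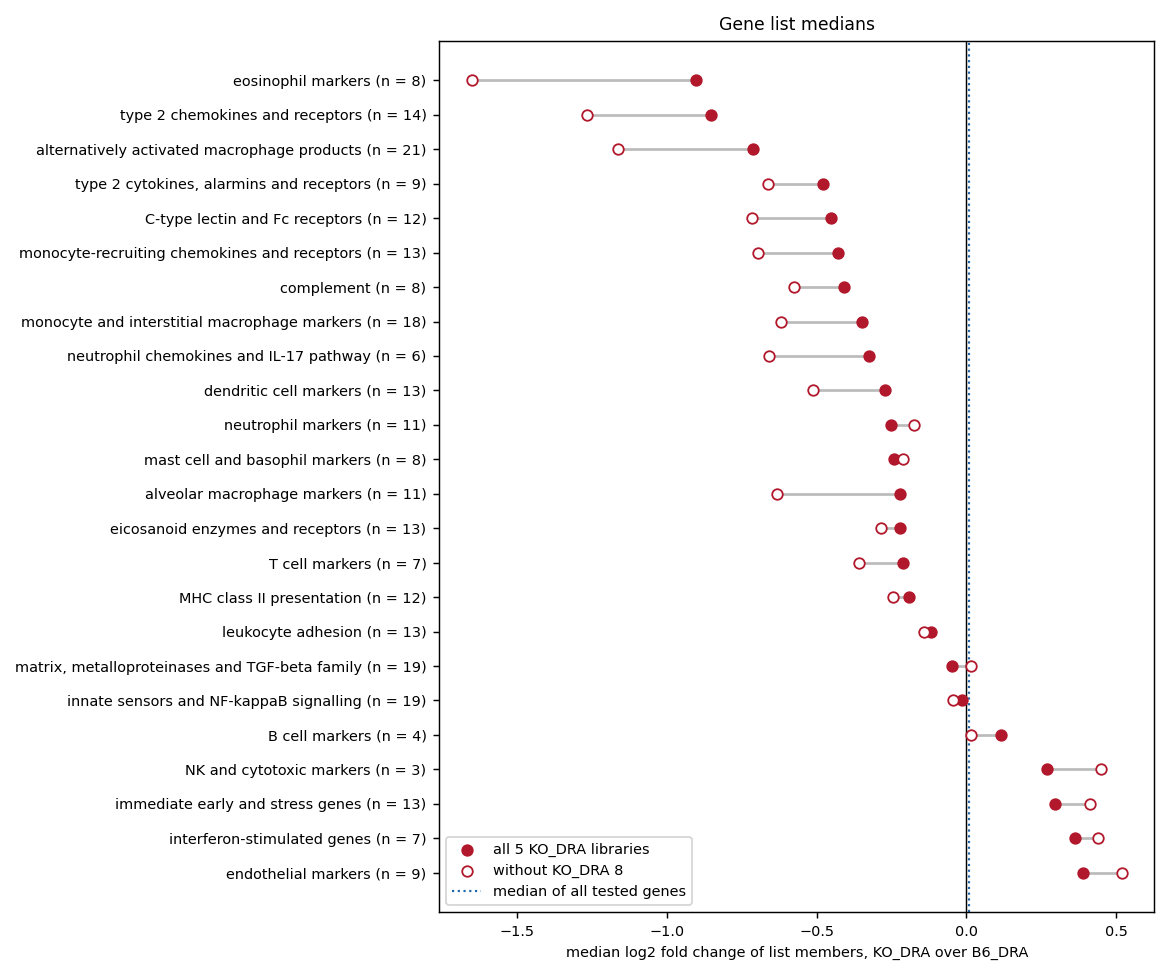
Median log2 fold change of KO_DRA over B6_DRA in each of 24 gene lists with 3 or more tested members, for all libraries and without the library labelled KO_DRA 8; the number of tested members stands beside each name and the dotted line is the median of all 665 genes. Type 2 lists have the lowest medians and endothelial, interferon-stimulated and immediate early genes the highest; with scaling to library size alone 10 of the 24 medians are below 0, in place of 19, while all genes shift up by 0.34.

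The largest log2 fold changes past the threshold without the library labelled KO_DRA 8, among genes above background in every library of a group, were -3.46 for Mmp12, -3.45 for Rnase2a and -2.99 for Ccl24. Cxcr1, a receptor for neutrophil chemokines, was another, with 481, 16.9, 21.3, 18.9 and 10.7 CPM in KO_DRA 8 to 12, against 72.6, 311, 20.8, 103 and 111 CPM in B6_DRA 3 to 7. The library labelled KO_DRA 8 held the highest Cxcr1 of the 10, so the log2 fold change was -0.20 with it and -2.85 without it. The Cxcr1 values of KO_DRA 9 to 12 rest on 4 to 11 counts, at or near background, and the lowest B6_DRA value on 9 counts. The size of its change is therefore uncertain. Fbp1, an enzyme of gluconeogenesis, had 292, 7.49, 1.94, 30.7 and 45.4 CPM in KO_DRA 8 to 12, against 56.4, 55.4, 48.5, 144 and 241 CPM in B6_DRA 3 to 7, with the same library highest again. The highest of the genes past that threshold, under the same background limit, were Fosb (1.06), Cyr61 (0.95), Col17a1 (0.94) and Mx2 (0.77).

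In 68 of the 120 genes called without it, the library labelled KO_DRA 8 lay inside the B6_DRA range, in 43 beyond the B6_DRA range on the side away from the other KO_DRA libraries, in 8 within the range of the other KO_DRA libraries, and in 1 between the ranges. These genes were selected by leaving that library out, so its place in them is a description that the selection largely fixed. It was nearer to the B6_DRA mean in 115 and to the other KO_DRA mean in 5, beside 513 of all 665 genes on the B6_DRA side. B6_DRA 5 was nearer to the KO_DRA 9 to 12 mean in 93 of the 120 genes and to the other B6_DRA libraries in 27, a share close to the 499 of 665 over all genes. Without the library labelled KO_DRA 8, 33 of the 120 genes did not overlap between the groups; with it, 5 did not.

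**Figure D4:**
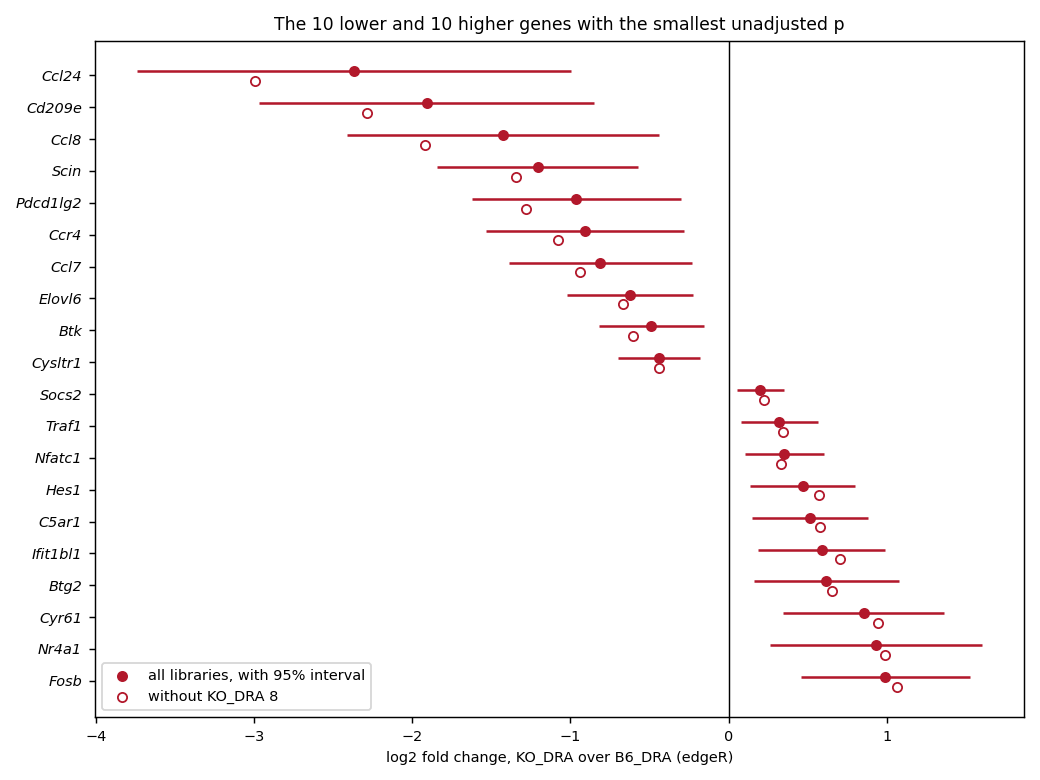
Log2 fold change of KO_DRA over B6_DRA with 95% intervals for the 10 lower and the 10 higher genes with the smallest unadjusted p, with all libraries (filled points), and without the library labelled KO_DRA 8 (open points). None of the 20 passed the threshold with all libraries; the intervals of the higher genes are narrower than those of Ccl24, Cd209e and Ccl8.

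The spread within the groups was larger in KO_DRA for 438 of the 665 genes, with a median SD of log2 CPM of 0.303 in KO_DRA and 0.257 in B6_DRA (n = 5 each). Without the library labelled KO_DRA 8 the KO_DRA median was 0.222, and 263 of the 665 genes had the larger SD in KO_DRA. Without B6_DRA 5 the B6_DRA median was 0.187 and the count 488. Leaving out both gave 406 genes, with medians of 0.222 in KO_DRA and 0.187 in B6_DRA. Of the removals given here, the order of the medians thus reversed only when the library labelled KO_DRA 8 alone was left out. KO_DRA 10 was the highest or the lowest of the 10 libraries in 317 genes, the library labelled KO_DRA 8 in 209, and B6_DRA 7 in 141.

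Among the 614 genes above background in all 10 libraries, Mmp12 had the largest SD in both groups. The SD of log2 CPM was 2.37 in KO_DRA and 1.997 in B6_DRA for Mmp12, 1.91 in KO_DRA and 1.24 in B6_DRA for Rnase2a, and 1.70 in KO_DRA and 1.42 in B6_DRA for Arg1. Mmp19 and Mmp13, matrix metalloproteinases, and S100a9 completed the top 5 of B6_DRA among these genes, with SDs of 1.35, 1.28 and 1.26. Mmp19 had 1744, 182, 159, 462 and 240.4 CPM in KO_DRA 8 to 12, against 2038, 567, 199, 1662 and 1066 CPM in B6_DRA 3 to 7. In Mmp12, Rnase2a, Chil3, Chil4 and Arg1, the top 5 of KO_DRA among these genes, the library labelled KO_DRA 8 was the highest of its group.

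Some genes had a far larger SD in 1 group than in the other. Lat, an adaptor of the T cell receptor, had 50.2, 26.2, 15.5, 23.6 and 18.7 CPM in KO_DRA 8 to 12, against 26.2, 30.4, 30.0, 27.7 and 28.5 CPM in B6_DRA 3 to 7, so that its SD of log2 CPM was 7.36 times as large in KO_DRA. Ccrl2, a chemerin-binding receptor, had 401, 618, 637, 469 and 505 CPM in KO_DRA 8 to 12, against 443, 445, 474, 446 and 454 CPM in B6_DRA 3 to 7 (7.14 times). H2-DMb1, a chain of the peptide loader of MHC class II, had 670.3, 761, 472, 698 and 831 CPM in KO_DRA 8 to 12, against 671, 672, 716, 651 and 679 CPM in B6_DRA 3 to 7 (6.20 times). In Lat the library labelled KO_DRA 8 was the high one, and in H2-DMb1 KO_DRA 10 the low one. Lat rested on 7 to 22 counts in KO_DRA and 9 to 17 in B6_DRA. At such counts a small SD among 5 libraries can arise by chance.

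The reverse held for Fem1c, Tlr9 and Col14a1. Fem1c, of a ubiquitin ligase, had 524, 538, 543, 549.7 and 542 CPM in KO_DRA 8 to 12, against 574, 465, 628, 514 and 520.2 CPM in B6_DRA 3 to 7, and its SD was 6.52 times as large in B6_DRA. Tlr9, the sensor of unmethylated DNA, had 125, 137, 118, 129.7 and 128 CPM in KO_DRA 8 to 12, against 109, 129, 78.5, 151 and 124 CPM in B6_DRA 3 to 7 (4.64 times). Col14a1, a fibril-associated collagen, had 194, 200.5, 208, 208 and 224 CPM in KO_DRA 8 to 12, against 377, 224, 266, 219 and 235 CPM in B6_DRA 3 to 7 (4.13 times). B6_DRA 5 was lowest in Tlr9 and highest in Fem1c, and B6_DRA 3 was highest in Col14a1. These genes were picked for their ratio out of 614 above background in all 10 libraries, so the ratios are a description. Tlr9 rested on 48 to 73 counts in KO_DRA and Fem1c on 203 to 287. The part of counting noise in these SDs was not tested. With scaling to library size alone the SD of Fem1c was 0.40 in KO_DRA and 0.41 in B6_DRA, and that of Lat in B6_DRA was 0.33 in place of 0.08, so these contrasts depend on TMM scaling.

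**Figure D5:**
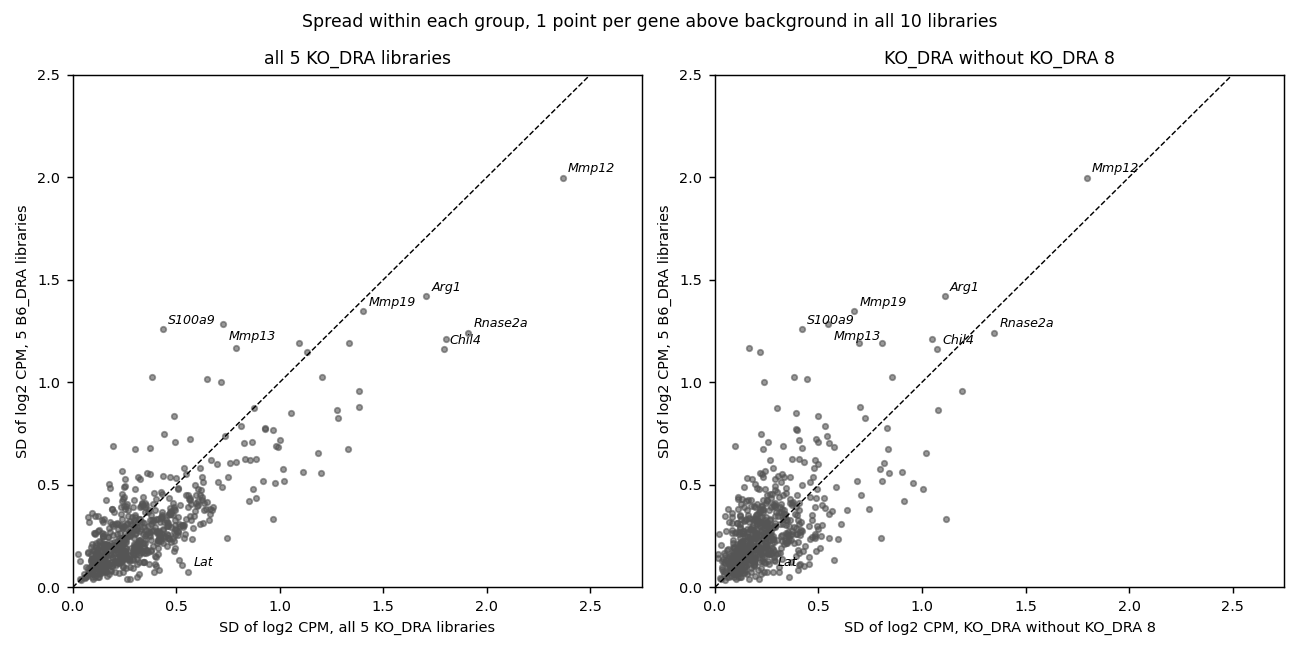
SD of log2 CPM of each gene in KO_DRA (horizontal) and in B6_DRA (vertical), with all 10 libraries on the left and without the library labelled KO_DRA 8 on the right; each point is 1 of the 614 genes above background in all 10 libraries and the dashed line marks equal SDs. With all libraries 409 genes lie on the KO_DRA side of the line, and without that library 243.

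At the other end, 5 genes had the narrowest intervals of the difference. Gnai3, an inhibitory G protein subunit, had 1434, 1514, 1461, 1441 and 1493 CPM in KO_DRA 8 to 12, against 1580.2, 1519.8, 1508, 1465 and 1500.2 CPM in B6_DRA 3 to 7, with a 95% interval of -0.17 to 0.08 on the log2 scale. The interval was -0.12 to 0.16 for Ifnar2, a chain of the type I interferon receptor. For Tapbp, which loads MHC class I, it was -0.14 to 0.15, for Rhog, a small GTPase, -0.16 to 0.12, and for Skil, a SMAD co-repressor, -0.20 to 0.06. Scaling to library size alone moved Gnai3, Rhog and Skil to 0.30, 0.33 and 0.27, near the shift of all genes.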

How the data were processed

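The authors deposited raw whole-number counts for 12 libraries, per the file headers, with 8 negative and 6 positive control probes. The other probes were taken as 734 endogenous and 20 housekeeping ones, a split inferred from where the alphabetical order of names restarts and not marked in the table. The scaled signal that the authors deposited beside them equals these counts times 1 factor per library and served as an alternative. R 4.2.0, edgeR and limma appear in the submitters' processing notes with no role given. Here, edgeR 4.0.16 (R 4.3.3) was run on the raw counts. Its filterByExpr step (minimum count 10, minimum total 15) kept 665 endogenous genes. After TMM scaling, a quasi-likelihood fit took all 12 libraries with 1 coefficient per group, so that B6_PBS adds to the estimate of spread (9 residual degrees of freedom). KO_DRA over B6_DRA was tested two-sided, adjusted by Benjamini-Hochberg over the 665 genes, at a threshold of 0.05. Each standard error was obtained by dividing the log2 fold change by the root of its F statistic. CPM uses TMM-scaled library sizes, and log2 CPM a prior count of 2. Background is the mean plus 2 SD of a library's negative controls.

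The members, gene lists and naming rules were chosen with earlier results of these data known. Named genes are Chil4, Chil3 and a set of type 2 genes, the 10 higher and 10 lower genes with the smallest unadjusted p, the 8 highest and lowest past the threshold without the library labelled KO_DRA 8, the genes of largest or most unequal spread, up to 4 members of each list with the smallest p, the genes without overlap, and the 5 narrowest intervals. Intervals before gene starts are from a RefSeq table of GRCm38.p6. The closest libraries of 1 group still differed beyond sampling noise (chi-square over its degrees of freedom, 7.15), so none was counted as a duplicate. The fitting code was tested on simulated data. Replicate numbers are never shared between groups, and no batch is given in the sources used here. Alternatives were DESeq2 1.42.0 size factors and test, housekeeping scaling, library size alone, no filter or a background filter, limma 3.58.1 (voom, and on the authors' scaled values with a pseudocount of 1), the 10 allergen libraries alone, and leaving out each library.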

Additional observations from a re-analysis of the deposited data

Results flagged for a closer look

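The check covered 200 sets of values in 1 group of 5 libraries each. A set was a named gene, the first principal component or the total counts. In 15 sets, all of them genes, the distance of a library from its nearest neighbour, as a share of the group's range, exceeded Dixon's 95% critical value. Chance gives about 1 in 20 for genes not chosen by their values. That does not apply here, since many were named for their spread or for passing without the library labelled KO_DRA 8. B6_DRA 5 was the far library in 8 of the 15, the library labelled KO_DRA 8 in 4, KO_DRA 9 in 2 and B6_DRA 3 in 1. All values below are log2 CPM, with the range of the other 4 libraries of the same group after each.

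The library labelled KO_DRA 8 stood above the rest of KO_DRA in Ccl24, at 6.27 where the others ran from 4.31 to 4.68, in Cxcr1, at 8.92 where they ran from 3.91 to 4.68, and in Cd80, a costimulatory ligand of antigen-presenting cells, at 7.80 where they ran from 6.28 to 6.53. It stood below the rest in Bmp6, at 9.13 where they ran from 10.31 to 10.67. KO_DRA 9 was low in Nfatc1, a transcription factor of calcium signalling, at 7.82 where the others ran from 8.16 to 8.27, and high in Tapbp, at 10.998 where they ran from 10.84 to 10.88.

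B6_DRA 5 was low in Il33, at 10.94 where the other B6_DRA libraries ran from 11.61 to 11.79, in Itgax, at 8.05 where they ran from 9.52 to 9.84, and in Csf2ra, a chain of the GM-CSF receptor, at 8.03 where they ran from 8.82 to 9.13. It was low in H2-Eb1, a class II chain, at 12.44 where they ran from 12.70 to 12.78. In 4 genes of vessels and stroma B6_DRA 5 was high. These were Timp3 at 12.33 where the others ran from 11.63 to 11.81, Bmp6 at 10.51 where they ran from 9.44 to 9.75, Tek at 11.26 where they ran from 10.69 to 10.76, and Thbd (thrombomodulin) at 12.59 where they ran from 11.79 to 11.97. B6_DRA 3 was low in C5ar1, at 7.49 where the others ran from 8.19 to 8.37.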

How the results depend on the processing

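No paired analysis was possible because each library has a replicate number of its own, from 1 to 12. DESeq2 called 1 gene, Ccl24, and the fit without the library labelled KO_DRA 8 called 120; over the fits that left out 1 library the count ran from 0 to 120. The log2 fold change of Chil4 ran from -2.27 to -0.64 over these fits, passing the threshold at -2.27 (without the library labelled KO_DRA 8), and it was -1.61 in limma-voom and -1.62 in limma on the authors' scaled values. The count of genes without overlap was 5 with scaling to library size alone and ran from 10 to 47 when 1 library was left out (47 without the library labelled KO_DRA 8, 27 without B6_DRA 5, 16 without KO_DRA 12, 13 without KO_DRA 9), where smaller groups raise it by construction. The count of genes with the larger spread in KO_DRA ran from 263 to 488 when 1 library was left out.

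Scaling to library size alone left 10 of 24 list medians below 0, in place of 19. It raised all genes by 0.34, and its log2 fold changes changed sign for Ccl22 (0.063), S100a9 (0.095), Alox5 (0.0059), Alox5ap (0.096), H2-Eb1 (0.085), Cd74 (0.10), Gnai3 (0.30), Skil (0.27) and Rhog (0.33). Tapbp was -0.010 on the authors' scaled values. With 1 library left out, values ran from -2.85 to 0.52 for Cxcr1, -0.55 to 0.032 for S100a9, -0.0037 to 0.043 for Ifnar2, -0.037 to 0.00096 for Rhog and -0.019 to 0.021 for Tapbp; the cause was not tested. Without the library labelled KO_DRA 8, 53 of the 89 named genes passed the threshold with the sign they had before. Over all genes, 120 of 664 passed (18.1%). Many of the 89 were named for passing in that fit or for a small p, so the naming largely set this count. Counts at or near background limit Cd209e, Ccl24, Ccr4, Cxcr1, Fbp1, Fcer1a, Il4, Il13, Il5, Il5ra and Lat, and 5 libraries a group limit every interval.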

Other observations

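Several genes among the smallest unadjusted p belong to none of the groups above. Elovl6, which lengthens fatty acids, had 47.9, 33.7, 38.8, 40.1 and 56.1 CPM in KO_DRA 8 to 12, against 54.4, 82.3, 67, 58 and 69.8 CPM in B6_DRA 3 to 7 and 46.4 and 56.9 CPM in B6_PBS; KO_DRA 12 reached above B6_DRA 3, and the log2 fold change was -0.62 (SE 0.18). Hes1, a repressor downstream of Notch, had 159.6, 262, 264, 212 and 240.4 CPM in KO_DRA 8 to 12, against 141, 165, 201, 161 and 155 CPM in B6_DRA 3 to 7 and 340.0 and 290.0 CPM in B6_PBS. Btg2, an antiproliferative gene, had 2022, 2426, 3363, 1847 and 1477 CPM in KO_DRA 8 to 12, against 1703, 1572, 1083, 1374 and 1519 CPM in B6_DRA 3 to 7. Traf1, an adaptor of TNF receptors, had 488, 519, 569, 543 and 470.2 CPM in KO_DRA 8 to 12, against 399, 349, 399.6, 512 and 415 CPM in B6_DRA 3 to 7, where B6_DRA 6 was the only wild type library above any of KO_DRA. Nfatc1 had 292, 221, 289, 281 and 305 CPM in KO_DRA 8 to 12, against 238, 188, 240.2, 224 and 193 CPM in B6_DRA 3 to 7, with KO_DRA 9 the only deficient library inside the B6_DRA range. None of these 5 genes passed the test with all libraries, and their log2 fold changes were 0.47 for Hes1, 0.62 for Btg2, 0.32 for Traf1 and 0.35 for Nfatc1.

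Of genes whose spread was most unequal, Cxcr4, the receptor of CXCL12, had 613, 609, 541, 552 and 539.7 CPM in KO_DRA 8 to 12, against 849, 445, 573, 739 and 707 CPM in B6_DRA 3 to 7, and Tap1, a transporter of peptides for MHC class I, had 625, 609, 602, 587 and 619.8 CPM in KO_DRA 8 to 12, against 499.9, 617, 568, 532 and 606 CPM in B6_DRA 3 to 7. Sp4, a zinc finger transcription factor, spread more in the deficient animals, at 271, 343, 398, 444 and 358 CPM in KO_DRA 8 to 12, against 335, 327, 339.6, 346 and 320.3 CPM in B6_DRA 3 to 7.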
